A study of Mus musculus with 4 samples.

Results

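The transcription factor NRF2, its repressor KEAP1 and 8 of the best known NRF2 target genes were examined in primary mouse microglia treated with epigallocatechin gallate (EGCG), a green tea flavan-3-ol described as an activator of NRF2. The 10 genes are Nfe2l2, which encodes NRF2, Keap1, Hmox1, Nqo1, Gclc, Gclm, Txnrd1, Srxn1, Slc7a11 and Sqstm1, and they were found by gene name among the 54532 genes shared by both deposited count tables. All 10 passed the filter on low values, a sum of at least 10 counts in all, and were tested together with every protein-coding gene that did, 13811 in number. Nfe2l2 RNA was higher with EGCG in both replicates, by 0.28 and 0.24 on the log2 scale, as were 29.9% of all genes tested. Of the 8 targets, 6 were lower in both replicates, beside 20.6% of all genes. They were lower by 0.15 or less, except for Slc7a11 in replicate 1 and Nqo1 in replicate 2. In replicate 1 the differences of Hmox1 and Nqo1 were within the error of counting reads. No member passed an adjusted p of 0.1, and Nfe2l2 passed an unadjusted p of 0.05 only in the fits that compare EGCG with vehicle within each replicate.

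Under resting conditions KEAP1 holds NRF2 in the cytoplasm and presents it to the CUL3 ubiquitin ligase, so that NRF2 protein is made and degraded continually. Electrophiles and oxidants modify cysteines of KEAP1, NRF2 escapes degradation, pairs with a small MAF protein in the nucleus and binds antioxidant response elements, where it competes with the repressor BACH1. The genes it switches on make glutathione, regenerate thioredoxin, degrade heme and reduce quinones, and in microglia the pathway is known for restraining oxidative and inflammatory responses. Since this control acts on the NRF2 protein, the RNA of Nfe2l2 is no direct measure of NRF2 activity.

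The cells were microglia of male CD1 mouse pups aged 1 to 3 days, grown in mixed cortical glia cultures with GM-CSF and separated from the astrocytic layer by trypsin. The 4 libraries of poly-A RNA came in pairs, 2 from cultures given 1 µM EGCG for 24 h and 2 from cultures given the DMSO vehicle for the same time, and the serum-free medium of both groups held IL-34, TGFβ2, GM-CSF and cholesterol. The labels describe the replicates as independent, and each number was deposited as a table of its own with 1 vehicle and 1 EGCG library. The libraries held between 33805071 and 54970300 counts, and the members between 83 counts (Nqo1, EGCG replicate 2) and 40788 counts (Sqstm1, EGCG replicate 2). Levels are given as CPM, each gene's counts as a share of the library, after scaling by edgeR's TMM method. Replicates differed more than treatments. Over all genes tested, the median absolute log2 difference was 0.377 between the vehicle libraries, against 0.116 and 0.1 between EGCG and vehicle within replicates 1 and 2.

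All 12 microglia markers were tested, and their summed level was 7680 and 11246 CPM in the vehicle libraries and 8501 and 11047 CPM in the EGCG libraries, with P2ry12 at 15.9 to 24.1 CPM and Tmem119 at 11.2 to 35.1 CPM at the low end. EGCG replicate 1 stood apart in stromal markers. The 12 stromal genes summed to 3135 and 878 CPM in the vehicle libraries and to 1971 and 954 CPM in the EGCG libraries, and their median difference in log2 terms was -4.95 for replicate 1 and 0.05 for replicate 2, where single markers ranged from -0.33 (Dcn) to 1.61 (Thy1). In EGCG replicate 1 Col1a1 held 4 counts and Lum 0 counts, whereas Fn1 stood at 1711 CPM. Of the astrocyte markers 9 of 10 were tested and summed to at most 23.0 CPM (Gfap at most 0.85 CPM). Neuron markers summed to 19.1 CPM or less with 6 of 9 tested, oligodendrocyte lineage markers to 185 CPM or less with 8 of 9 tested, and endothelial markers to 215 CPM or less with 5 of 8 tested. The part of these other cells in the member levels was not tested. In such bulk RNA, fewer cells of a type and less RNA per cell cannot be told apart.

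The element that NRF2 binds was searched in the RefSeq promoters (build GRCm38.p6, from 250 bases before to 50 after the annotated start), since it is what links the 8 targets to the factor. Promoters were found for 8 of the 10 members, with 3 alternative starts for Txnrd1, and not for Hmox1 and Gclc. The core of the antioxidant response element, TGACNNNGC on either strand, was present in 12.4% of all 32851 promoters. It was present in 4 of the 10 promoters of these 8 genes, those of Nfe2l2 itself and of the targets Srxn1, Gclm and Txnrd1. The matches follow with 8 flanking bases on each side, read 5′ to 3′ on the strand that carries the core, which is in capitals:
Nfe2l2: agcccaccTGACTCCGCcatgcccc
Srxn1: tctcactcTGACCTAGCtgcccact
Gclm: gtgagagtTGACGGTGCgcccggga
Txnrd1: tgtcagaaTGACAAAGCaaaaatcc

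The Nfe2l2 core lay at chr2:75704895-75704903 on the strand of the gene, at position -240 from the start. The other 3 lay on the opposite strand. The Srxn1 core was at chr2:152105552-152105560, at position 28 past the start, the Gclm core at chr3:122245423-122245431, at position -134, and the Txnrd1 core at chr10:82859114-82859122, at position -92 of 1 of the 3 starts. The promoter of Srxn1 alone among the 8 genes also held the related AP-1 letters TGANTCA, which occur in 7.81% of all promoters. It held them at 2 places, chr2:152105422-152105428 and chr2:152105479-152105485, neither of which overlapped the core, shown here because the AP-1 letters form the inner part of many NRF2 binding sites:
Srxn1 at position -102: ggagggccTGAGTCAccacgctg
Srxn1 at position -45: attcacccTGAGTCAgcggccgg

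The windows of Keap1, Nqo1, Slc7a11 and Sqstm1 did not hold the core letters. A match is a description of letters, and elements outside the window were not searched.

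Nfe2l2 (ENSMUSG00000015839, chr2:75675513-75704641, minus strand) was measured at 608 CPM in Vehicle replicate 1, 738 CPM in EGCG replicate 1, 474 CPM in Vehicle replicate 2 and 561 CPM in EGCG replicate 2. EGCG was the higher library in each replicate, but the groups overlapped, since EGCG replicate 2 was below Vehicle replicate 1. The means were 541 ± 94.8 CPM for vehicle and 649 ± 125 CPM for EGCG (SD, n = 2 each). EGCG exceeded vehicle by 0.28 in replicate 1 and by 0.24 in replicate 2 in log2 terms, each with a counting error of 0.014. With treatment as the only term, edgeR gave a log2 fold change of 0.26 with an SE of 0.24 and an adjusted p of 1.00. With the replicate number as a block the estimate was also 0.26, with an SE of 0.055 and a 95% interval of 0.12 to 0.40, and the unadjusted p was 0.00467 (rank 24 of 13811 genes). The adjusted p was 0.995 in edgeR with the block and 0.207 in DESeq2 with the block.

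**Figure D1:**
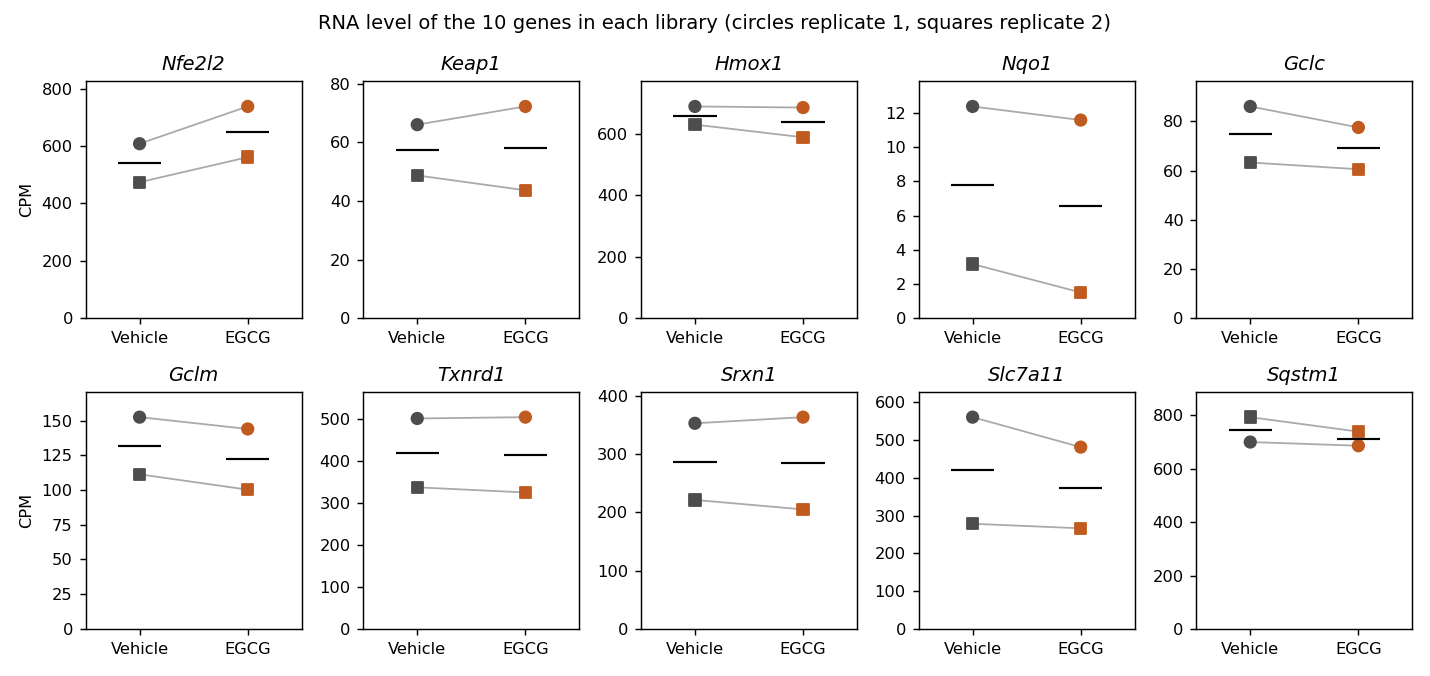
RNA level of each of the 10 genes in CPM (vertical axis, from 0, own scale per gene) in the vehicle and EGCG libraries; circles are replicate 1, squares replicate 2, grey lines join the libraries of a replicate and black bars are group means. Nfe2l2 goes up along both lines, from 608 to 738 CPM and from 474 to 561 CPM, while the lines of most targets are nearly level and far apart.

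Keap1 (ENSMUSG00000003308, chr9:21229730-21239361, minus strand), the adaptor that targets NRF2 for degradation, was measured with vehicle at 66.0 CPM in replicate 1 and 48.7 CPM in replicate 2, and with EGCG at 72.2 and 43.6 CPM in the same order, which holds for all pairs of values that follow. It was thus higher with EGCG in replicate 1 and lower in replicate 2, with log2 differences of 0.13 and -0.16. The edgeR log2 fold change was 0.01 with an SE of 0.32 (adjusted p = 1.00). With the block it was -0.01 with a 95% interval of -0.23 to 0.20. An antisense transcript, Gm16754, overlaps Keap1 and held 41 to 72 counts against at least 1784 counts for Keap1. Per length, Nfe2l2 RNA was 11.4 times as abundant as Keap1 RNA in Vehicle replicate 1 and 12.6 times in EGCG replicate 1, and 12.03 and 15.9 times in replicate 2.

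Without the block, 0 of the 10 members had an unadjusted p under 0.05 in edgeR or in DESeq2, where edgeR called 16 genes in all, a background of 0.116%. With the replicate block, edgeR called 1 member, Nfe2l2, against 3.21% of all genes tested (2.12% called and higher with EGCG). DESeq2 with the block called 2 members, Nfe2l2 and Slc7a11, against 1.11% of all genes. Nfe2l2 was the only member higher with EGCG in both replicates, as were 29.9% of all genes. The 6 members Hmox1, Nqo1, Gclc, Gclm, Slc7a11 and Sqstm1 were lower in both replicates, as were 20.6% of all genes. No member had both EGCG libraries above both vehicle libraries, which 6.39% of all genes did, or both below, which 5.51% did. The median log2 fold change was -0.09 over the 8 targets and 0.01 over all genes tested.

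**Figure D2:**
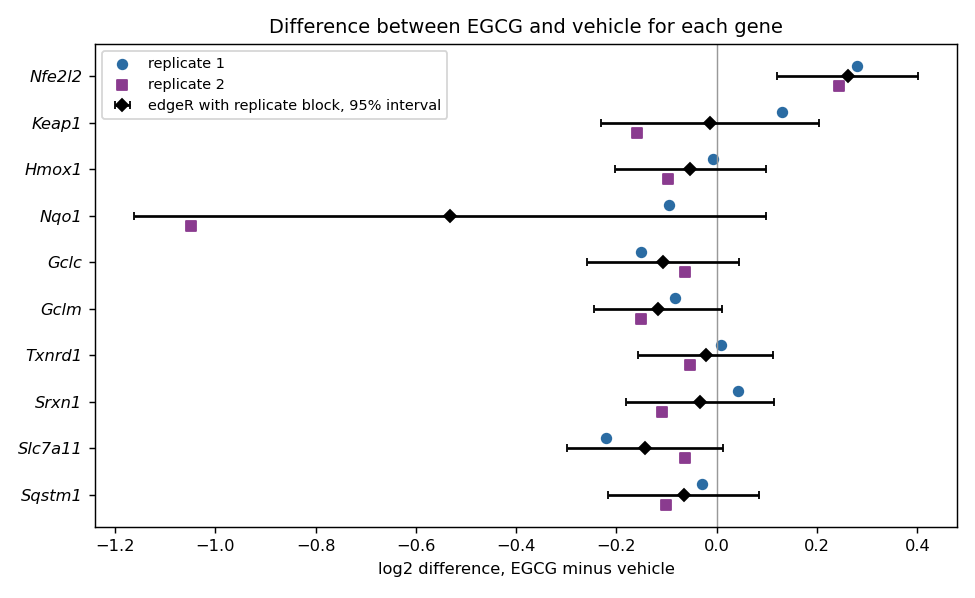
Log2 difference between EGCG and vehicle (horizontal axis) for each of the 10 genes; circles and squares are the differences within replicates 1 and 2, and diamonds with bars are the edgeR estimate with the replicate block and its 95% interval. The interval of Nfe2l2, 0.12 to 0.40, is the only one that leaves out 0.

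Hmox1 (ENSMUSG00000005413, chr8:75093621-75100589, plus strand) encodes heme oxygenase 1, which degrades heme to biliverdin, carbon monoxide and iron. It was measured at 689.7 and 630.6 CPM in the vehicle libraries and at 686 and 589 CPM in the EGCG libraries. The libraries lay close together and the groups overlapped. Replicate 1 differed by -0.01 and replicate 2 by -0.10 in log2 terms, and edgeR gave -0.05 with an SE of 0.18 (adjusted p = 1.00). With the block the 95% interval was -0.20 to 0.10.

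Nqo1 (ENSMUSG00000003849, chr8:107388225-107403206, minus strand) encodes the quinone reductase most often used to read NRF2 activity, and it was the lowest of the 10 genes. It was measured at 12.4 and 3.16 CPM in the vehicle libraries and at 11.6 and 1.504 CPM in the EGCG libraries, which rest on 406, 116, 371 and 83 counts. Replicate 1 was above replicate 2 in both treatments, by a log2 difference of 1.95 in vehicle and 2.90 in EGCG. Between EGCG and vehicle the log2 difference was -0.10 for replicate 1, within its counting error of 0.10, and -1.05 for replicate 2, with a counting error of 0.21. The edgeR log2 fold change was -0.25 with an SE of 1.204 (adjusted p = 1.00), and -0.53 with a 95% interval of -1.16 to 0.10 with the block.

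The next 3 members supply glutathione, the main thiol antioxidant of the cell. Slc7a11 encodes the cystine importer xCT, and Gclc and Gclm encode the catalytic and modifier subunits of glutamate-cysteine ligase, the rate-limiting enzyme of glutathione synthesis. All of them were lower with EGCG in both replicates, by 0.06 to 0.22 on the log2 scale, and all had higher levels in replicate 1 than in replicate 2.

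Slc7a11 (ENSMUSG00000027737, chr3:49892526-50443614, minus strand) was measured at 561 and 279 CPM in the vehicle libraries and at 482 and 267 CPM in the EGCG libraries. The groups overlapped, since replicate 1 lay 1.01 above replicate 2 in vehicle and 0.85 in EGCG on the log2 scale. EGCG minus vehicle was -0.22 for replicate 1 and -0.06 for replicate 2 in log2 terms, and edgeR gave -0.17 with an SE of 0.49 (adjusted p = 1.00). DESeq2 with the block gave -0.15 with an unadjusted p of 0.0481 and an adjusted p of 1.00, and edgeR with the block gave an unadjusted p of 0.0649. Part of the Slc7a11 transcript is nearly the same as the alpha-tubulin RNAs. For Tuba1b the highest identity was 96.2% and the longest alignment 585 nucleotides, each taken separately over all alignments. The length used for Slc7a11 was 13922 bases. Tuba1b held 3670 and 6977 counts in the vehicle libraries and 4064 and 11488 counts in the EGCG libraries. The assignment of reads from the shared part is therefore uncertain.

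Gclc (ENSMUSG00000032350, chr9:77754535-77794485, plus strand) was measured at 86.1 and 63.3 CPM in the vehicle libraries and at 77.6 and 60.6 CPM in the EGCG libraries. Gclm (ENSMUSG00000028124, chr3:122245557-122270732, plus strand) was measured at 152.5 and 111 CPM in the vehicle libraries and at 144 and 100.3 CPM in the EGCG libraries. For both subunits EGCG replicate 1 stayed above Vehicle replicate 2, so the groups overlapped. The log2 differences were -0.15 and -0.06 for Gclc and -0.08 and -0.15 for Gclm in replicates 1 and 2. The edgeR log2 fold change was -0.11 for each, with SEs of 0.23 and 0.27 and adjusted p-values of 1.00. With the block the upper bound of the 95% interval was 0.04 for Gclc and 0.01 for Gclm. Per length the subunits were nearly equal in every library, with a ratio of Gclc to Gclm between 0.9 and 1.01.

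Thioredoxin reductase 1, encoded by Txnrd1, recharges thioredoxin with NADPH, and sulfiredoxin, encoded by Srxn1, repairs overoxidized peroxiredoxins. Txnrd1 (ENSMUSG00000020250, chr10:82833951-82897712, plus strand) was measured at 501 and 337 CPM in the vehicle libraries and at 505 and 325 CPM in the EGCG libraries. EGCG minus vehicle was 0.01 and -0.05 in log2 terms, and edgeR gave -0.02 with an SE of 0.34 (adjusted p = 1.00). Srxn1 (ENSMUSG00000032802, chr2:152105516-152111376, plus strand), whose promoter holds the core and both AP-1 matches shown above, was measured at 353 and 221 CPM in the vehicle libraries and at 363 and 205 CPM in the EGCG libraries. EGCG minus vehicle was 0.04 and -0.11 in log2 terms, and edgeR gave -0.01 with an SE of 0.40 (adjusted p = 1.00). Genes that overlap Txnrd1, such as Eid3 and Gm38560, held at most 110 counts, against at least 12367 for Txnrd1. Txnrd1 and Srxn1 differed in opposite directions between the replicates, and with the block the 95% intervals reached from -0.16 to 0.11 for Txnrd1 and from -0.18 to 0.11 for Srxn1.

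Sqstm1 (ENSMUSG00000015837, chr11:50199366-50210827, minus strand) encodes p62, an autophagy receptor that binds KEAP1 and is itself an NRF2 target. It was measured at 700.3 and 794 CPM in the vehicle libraries and at 686 and 739 CPM in the EGCG libraries. It was the only member with higher levels in replicate 2 than in replicate 1. EGCG was lower in both replicates, by 0.03 and 0.10 on the log2 scale, and edgeR gave -0.07 with an SE of 0.17 (adjusted p = 1.00). Mrnip overlaps the gene on the opposite strand with 35 to 58 counts, against at least 21997 counts for Sqstm1.

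The blocked 95% intervals of the targets had upper bounds from 0.01 (Gclm) to 0.11 (Srxn1), below the lower bound of 0.12 for Nfe2l2. Over all genes tested the median blocked log2 fold change was 0.01. The share of them with an upper bound below 0.12 was not counted, so this order cannot be read as particular to the targets. Without the block the Nfe2l2 interval was -0.42 to 0.95 and overlapped that of every target. The difference between Nfe2l2 and its targets was not itself tested, and all 10 genes were read in the same 4 libraries.

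**Figure D3:**
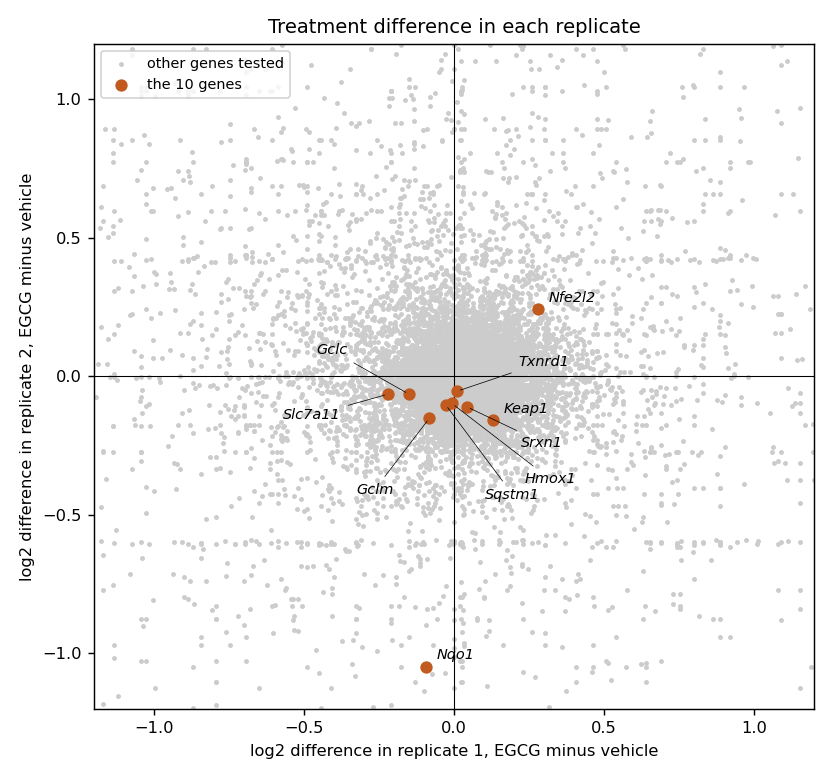
Log2 difference between EGCG and vehicle in replicate 1 (horizontal axis) and in replicate 2 (vertical axis), with 1 point per gene tested, the 10 genes in colour and 1045 genes outside the axes. Nfe2l2 is the only one of the 10 genes in the upper right, and Nqo1 lies low because of replicate 2 alone.

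The larger difference among the 10 genes was between replicates. In 9 members both replicate 1 libraries were above both replicate 2 libraries, the exception being Sqstm1, and 37.4% of all genes tested showed this order. The log2 difference of replicate 1 over replicate 2 was smallest for Hmox1, at 0.13 in vehicle and 0.22 in EGCG. It was 0.36 and 0.40 for Nfe2l2, 0.44 and 0.73 for Keap1, and largest for Nqo1. Srxn1 differed by 0.67 and 0.83 and Txnrd1 by 0.57 and 0.63. Each of these differences between replicates was larger than the difference between EGCG and vehicle in the same gene. The replicate 1 libraries also had the higher summed levels of neuron and endothelial markers, at 17.6 to 19.1 CPM against 1.28 to 1.74 CPM and at 213 to 215 CPM against 73.5 to 82.5 CPM, and the lower sums of microglia markers. Whether these move the member levels was not tested.

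**Figure D4:**
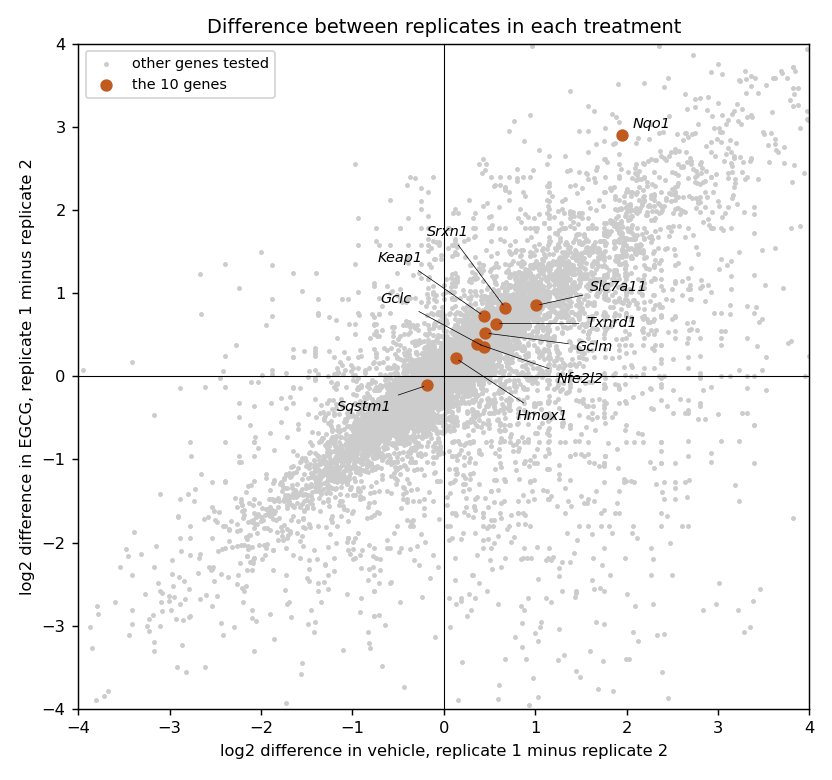
Log2 difference of replicate 1 over replicate 2 in vehicle (horizontal axis) and in EGCG (vertical axis), with 1 point per gene tested, the 10 genes in colour and 139 genes outside the axes. Of the 10 genes 9 lie in the upper right, with Nqo1 farthest out at 1.95 and 2.90, and Sqstm1 lies in the lower left.

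Levels between genes were compared as CPM per kilobase of transcript. Hmox1 was the highest of the 10 genes, at 337 to 394 CPM per kilobase over the 4 libraries and rank 87 of the 13811 genes tested. Sqstm1 came next at 205 to 236, then Nfe2l2 at 125 to 194, Srxn1 at 72.7 to 129 and Txnrd1 at 45.9 to 71.2 CPM per kilobase. Slc7a11 at 19.1 to 40.3, Gclm at 15.9 to 24.2 and Gclc at 16.1 to 22.9 CPM per kilobase formed a group below them, followed by Keap1 at 9.29 to 15.4 and Nqo1 at 0.969 to 7.97. The ranges of Nfe2l2 and Srxn1, of Slc7a11 and Gclm, and of Gclm and Gclc overlapped, although Nfe2l2 was above Srxn1 and Slc7a11 above Gclm within each of the 4 libraries. The heme oxygenase gene was among the most abundant RNAs of these cells also with vehicle alone, and the quinone reductase gene was near the middle of all genes, at the 51.5th percentile of this level.

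The genes whose pattern over the 4 libraries was most like that of Nfe2l2, among 9746 genes with at least 100 counts in each library, were Tmem60, Fdx1 and Ndufc1. Their Euclidean distances from Nfe2l2, over log2 CPM centred on each gene's mean, were 0.0547, 0.0631 and 0.0643.

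The wider NRF2 pathway, with ATF4 stress and selective autophagy genes, was read from 8 lists. They named 135 genes, of which 127 were tested. None had an unadjusted p under 0.05 in edgeR without the block, or in DESeq2 without the block, and the smallest unadjusted p in that edgeR fit was 0.0814. With the block, edgeR called 7 genes higher and 1 lower with EGCG, or 6.30% of the 127, where 3.21% of all genes tested were called and 2.12% called higher. DESeq2 with the block called 5 of the 127, against 1.11% of all genes, and none passed an adjusted p of 0.1 in any of these 4 fits. In 49 of the 127 genes, or 38.6%, EGCG was higher in both replicates, and in 15, or 11.8%, it was lower in both, beside the shares of 29.9% and 20.6% over all genes. Both EGCG libraries were above both vehicle libraries in 6 of the 127 genes and below in 5, where 6.39% and 5.51% of all genes were. The median log2 fold change was 0.04.

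The glutathione genes held 6 of these 8 calls, with 5 higher and 1 lower among 27 tested in edgeR with the block, beside 3.21% called and 2.12% called higher over all genes. DESeq2 with the block called 2 of the 27, Gpx1 and Gstm2, beside 1.11% of all genes. Gpx1, the main cytosolic glutathione peroxidase, was measured at 678 and 479 CPM in the vehicle libraries and at 751 and 527 CPM in the EGCG libraries, with a blocked log2 fold change of 0.14. Gpx4, which reduces lipid peroxides in membranes, stood at 231 and 172 CPM with vehicle and at 262 and 183 CPM with EGCG (0.14 with the block), and Gpx3, the secreted peroxidase, at 47.7 and 31.8 CPM against 54.5 and 39.9 CPM (0.26 with the block). Gstm1 and Gstm2, glutathione transferases of the mu class, had blocked log2 fold changes of 0.19 and 0.60. Gstm2 went from 18.1 to 20.9 CPM in replicate 1 and from 1.39 to 3.17 CPM in replicate 2. The transferase Gstp1 was the lower one, at 15.2 and 15.03 CPM with vehicle and 10.3 and 13.6 CPM with EGCG, and the blocked log2 fold change was -0.35. Its 2 EGCG libraries were both below its 2 vehicle libraries, as in 5.51% of all genes. In edgeR with the block the unadjusted p-values of these 6 genes ran from 0.00892 for Gpx3 to 0.0493 for Gstm2, with adjusted p-values of 0.995. Members of the Gstm and Gstp families are close copies of each other, so that their counts are uncertain. Slc3a2, the heavy chain that carries xCT to the membrane, was measured at 492 and 385 CPM with vehicle and 493 and 377 CPM with EGCG.

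Among 13 other thioredoxin and peroxiredoxin genes, 9 were higher with EGCG in both replicates and 1 was lower in both, beside 29.9% and 20.6% of all genes. With the block, edgeR called none and DESeq2 called 2, Prdx1 and Sesn1, beside 1.11% of all genes. Prdx1, a peroxiredoxin and NRF2 target, was measured at 5031 and 2338 CPM with vehicle and at 5753 and 2515 CPM with EGCG. Its blocked log2 fold change in edgeR was 0.15 with an adjusted p of 0.995, and DESeq2 with the block gave an unadjusted p of 0.0212. Of the heme and iron genes 5 of 11 were higher in both replicates and none was lower in both, beside the same shares of 29.9% and 20.6%. Fth1, the ferritin heavy chain, was measured at 21328 and 21209 CPM with vehicle and 22524 and 22112 CPM with EGCG. Both EGCG libraries were thus above both vehicle libraries, as in 6.39% of all genes, and its blocked log2 fold change was 0.07. Ftl1, the light chain, was higher in replicate 1 and lower in replicate 2, at 10132 and 7463 CPM with vehicle and 10646 and 7140 CPM with EGCG.

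The list of 24 tested regulators and partners of NRF2 held no gene called with the block, and its median log2 fold change was 0.00. In both replicates 7 were higher and 5 lower, beside 29.9% and 20.6% of all genes. Chosen after their values were seen, because they act beside KEAP1 and NRF2, Cul3 stood at 126 and 126 CPM with vehicle and 132 and 132 CPM with EGCG, Bach1 at 115 and 143 against 121 and 137 CPM, and Mafg, a small MAF, at 120 and 122 against 119 and 111 CPM. The 7 NADPH supply genes and the 13 selective autophagy genes held no call either. Among 20 other quinone, carbonyl and detoxification genes edgeR with the block called only Nqo2, the second quinone reductase, at 28.01 and 22.3 CPM with vehicle and 31.0 and 25.3 CPM with EGCG (log2 fold change 0.17, unadjusted p of 0.0437). Among 12 genes of the ATF4 response, which also drives Slc7a11, the block called only the stress factor Atf3, at 418 and 313 CPM against 463 and 352 CPM (log2 fold change 0.16, unadjusted p of 0.0246). Atf4 itself was measured at 244 and 228 CPM with vehicle and 244 and 233 CPM with EGCG.

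The remaining genes with the highest level per length in each list are given next, with the vehicle values first. Prkcd, a kinase that phosphorylates NRF2, was measured at 538 and 437 CPM with vehicle and 532 and 439 CPM with EGCG, and Cdkn1a, whose product p21 stabilizes NRF2, at 208 and 225 against 219 and 223 CPM. Prdx5, a mitochondrial and peroxisomal peroxiredoxin, stood at 441 and 326 against 455 and 332 CPM. Of the pentose phosphate enzymes that supply NADPH, Taldo1 stood at 286 and 263 against 320 and 249.7 CPM and Pgd at 664 and 334 against 679 and 318 CPM. Both were higher with EGCG in replicate 1 and lower in replicate 2. Akr1a1, an aldehyde reductase, stood at 2504 and 1215 against 2739 and 1274 CPM, and Esd, an esterase that acts on glutathione adducts of formaldehyde, at 479 and 261 against 513 and 267 CPM. The autophagosome proteins Gabarap and Gabarapl1, to which p62 can bind, stood at 329.96 and 344.5 against 356 and 351 CPM and at 209.8 and 125 against 218 and 119 CPM. Both EGCG libraries of Gabarap were above its vehicle libraries, as in 6.39% of all genes. With the block none of these 9 genes had an unadjusted p under 0.05 in edgeR, nor any of them in DESeq2.

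**Figure D5:**
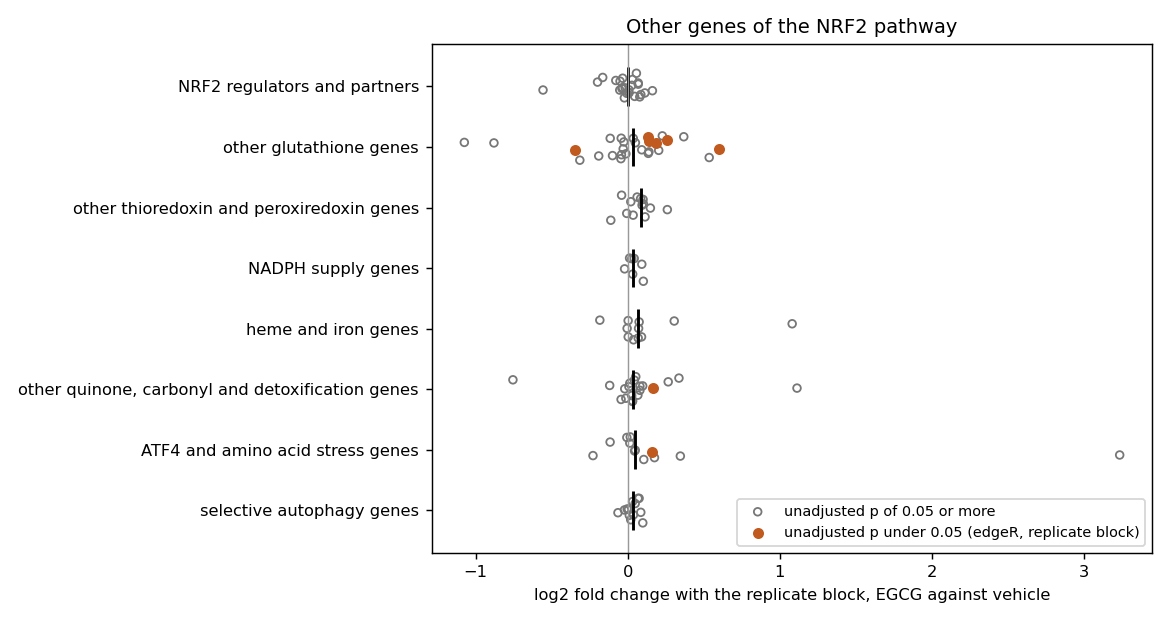
Blocked edgeR log2 fold change of EGCG against vehicle (horizontal axis) for the 127 tested genes of the 8 lists (vertical axis). The lists hold NRF2 pathway, ATF4 stress and selective autophagy genes. Filled points stand for an unadjusted p under 0.05, open points for the rest and black bars for list medians. Of the 8 filled points 6 are glutathione genes, and the medians lie between 0.00 and 0.09.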

How the data were processed

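RNA of 4 cultures was read by directional poly-A sequencing. Per the labels and methods, reads were filtered and aligned with HISAT2 to GRCm38.p6, and the authors deposited unnormalized counts per gene in 1 table per replicate. The counting program and its use of strand are not given in the sources used here. Columns were tied to samples by group name and by the replicate number of each table in the study's metadata. Loci assembled separately in each table (697 and 329, at most 0.156% of counts) were left out of the joined table.

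Counts were tested in edgeR 4.0.16 (R 4.3.3; TMM, quasi-likelihood test, two-sided, Benjamini-Hochberg adjustment) with treatment as the only term, and alternatively in DESeq2 1.42.0. Log2 levels were computed with a prior count of 2, and counting errors cover the sampling of reads only. Same-numbered libraries deviated together across genes (Pearson r = 0.641) and each number marks a shared deposited table, so a replicate block was also fitted. Between the EGCG differences of replicate 1 and those of replicate 2, Pearson r across genes was -0.054. Permuting 2 against 2 libraries cannot give a p below 0.333, so p-values rest on the models. BLAST 2.17.0 was used to find near-identical transcripts (90% identity over 200 nucleotides), and the fits were first tested on simulated data. There 200 genes were changed by 1.5 on the log2 scale, and smaller changes such as that of Nfe2l2 were not simulated. Alternatives changed the test, block, dispersion method, scaling, low-count filter, gene classes and libraries.

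The members and lists were chosen with earlier results of these data known. Other genes named are those of each list with an unadjusted p under 0.05 (at most 6), the 2 of each with the highest level per length, and the 3 most like Nfe2l2. The rest are marked or are markers, overlapping genes or near-copies.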

Additional observations from a re-analysis of the deposited data

How the results depend on the processing

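Over 13 alternatives, the 10 members' log2 fold changes kept direction and side of the threshold in 107 of 130 cases. Nfe2l2 kept its direction throughout. The 3 values that passed an unadjusted p of 0.05 did so only with the replicate block, and were Nfe2l2 in edgeR (0.26) and DESeq2 (0.25) and Slc7a11 in DESeq2 (-0.15). Keap1 turned to -0.0139 with the block in edgeR, -0.0213 with it in DESeq2 and -0.0269 with total counts only. Leaving out 1 library moved Nfe2l2 between 0.05 (without EGCG replicate 1) and 0.45 (without Vehicle replicate 1), and 0 members passed in these fits, in which the lone library was assumed to vary like the others. The ranges were -0.39 to 0.30 for Keap1, -0.16 to 0.0245 for Hmox1, -2.37 to 1.04 for Nqo1, -0.34 to 0.12 for Gclc, -0.40 to 0.13 for Gclm, -0.37 to 0.30 for Txnrd1, -0.49 to 0.36 for Srxn1, -0.66 to 0.42 for Slc7a11 and -0.15 to 0.00987 for Sqstm1. Each such fit sets unequal numbers of replicate 1 and replicate 2 libraries against each other.

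Genes with an unadjusted p under 0.05 numbered 16 of all tested. They numbered 3 with 10 counts required in every library, 35 with all biotypes, 38 with the newer dispersion method, 153 and 444 with the replicate block in DESeq2 and edgeR, and 8 to 134 with 1 library left out (59 without Vehicle replicate 2, 134 without EGCG replicate 2). Members called went from 0 to 2 and 1 with the replicate block in DESeq2 and edgeR, and pathway genes from 0 to 5 and 8, and from 0 to 1 with 1 library left out. The block changed no other member's call, and the causes of these changes were not tested. With 2 libraries per group, the unblocked SEs of 0.17 to 1.204 limit what the fit without the block can show in the members. With the replicate block the SEs ran from 0.0504 (Gclm) to 0.248 (Nqo1). Nqo1 is also limited by low counts, with 83 in EGCG replicate 2, the deepest library.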
